A study of Mus musculus with 6 samples.

Results

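The cytosolic ribosomal protein genes were examined in cochleae of mouse embryos that lacked Igf1, the gene of insulin-like growth factor 1. Members were all genes with a probe set annotated to them alone whose symbol begins with Rpl or Rps followed by a number, or is Rplp0, Rplp1, Rplp2 or Rpsa, without the Rps6k kinase genes and without pseudogene symbols. Where a gene had several such probe sets, the one with the greatest mean signal across the 6 arrays stood for it. The rule found 48 members among 12393 genes. They were 20 proteins of the small subunit, 20 of the large subunit, the P stalk proteins Rplp0 and Rplp2, and 6 paralogs caught by their symbols (Rpl3l, Rpl22l1, Rpl39l, Rpl7l1, Rps27l and Rps4l). A further 30 ribosomal protein genes, among them Rpl3, Rpl5, Rpl10, Rplp1, Rps12 and Rps16, were named only by probe sets that list several genes, mostly pseudogenes of the same protein, and are not members.

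The study compared Igf1 null with wild type embryos on a C57BL/6J background, from matings of heterozygous parents, at embryonic day 18.5. RNA of 4 cochleae, dissected together with the otic capsule but free of vestibular tissue, made up 1 pool. Each pool was hybridised as biotin-labelled RNA to 1 Affymetrix array, and there were 3 pools of each genotype, called here by the replicate numbers of their titles. The null allele was present in every cell of the embryo, and the disrupted part of the gene is not given. Whether embryos of 1 litter were shared between pools is not stated, so the p-values rest on the spread between these pools. In the limma tests that spread is drawn in part toward a value shared by all genes.

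Ribosomal proteins are the structural proteins of the ribosome, and their messages are among the most plentiful in growing tissue. Insulin-like growth factor 1 acts through its receptor on the mTOR pathway, which controls how well messages that start with a terminal oligopyrimidine (TOP) tract, a run of C and T at the first bases, are loaded onto ribosomes. Ribosomal protein messages are the classic TOP messages, and Rps6 is the protein phosphorylated by S6 kinase in that pathway. The arrays measured the amount of message only, and neither translation nor phosphorylation.

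The run of C and T at the start of the message is shown for 8 members: the 5 with the smallest p among those higher in the null, the bright small subunit genes Rps10 and Rps18, and Rpl4, which was lower in every null pool. Each line gives 15 bases before the start and 15 from it, 5′ to 3′ on the gene's own strand, from the RefSeq promoter table of build GRCm38.p6, with 1 run of C and T in capitals. That run is the longest with a base among the start, the 3 bases before it and the 3 after it, so it need not cover the start itself.
Rpl27a, chr7:109519180-109519209, plus strand: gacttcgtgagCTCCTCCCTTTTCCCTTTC
Rps10, chr17:27635230-27635259, minus strand: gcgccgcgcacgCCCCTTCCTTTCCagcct
Rps18, chr17:33955651-33955680, minus strand: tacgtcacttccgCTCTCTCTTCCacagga
Rps6, chr4:86857353-86857382, minus strand: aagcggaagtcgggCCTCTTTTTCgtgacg
Rpl12, chr2:32961697-32961726, plus strand: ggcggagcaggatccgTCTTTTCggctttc
Rps25, chr9:44407699-44407728, plus strand: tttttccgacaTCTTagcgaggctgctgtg
Rps2, chr17:24720048-24720077, plus strand: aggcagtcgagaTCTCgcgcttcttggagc
Rpl4, chr9:64173372-64173401, plus strand: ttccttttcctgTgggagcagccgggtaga

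The runs differed in length between these genes at the annotated start. They spanned 19 of the printed bases in Rpl27a, where the run reached the end of the line, 13 in Rps10, 11 in Rps18 and 10 in Rps6. They spanned 7 bases in Rpl12, 4 in Rps25 and in Rps2, and 1 in Rpl4, where a stretch rich in C and T lies just before the annotated start. Annotated starts can be some bases away from the start used in a tissue. In the table, 42 of the 48 members matched, with 50 promoter entries. Counted onward from any base within 3 of the start, at least 8 C or T in a row were present in 28% of these entries and in 4.29% of all 32851 entries.

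The 250 bases before the start were searched on both strands for short words. CCGGAAG, the core word of ETS factor sites, was found in 34% of the members' promoters and in 6.91% of all promoters. GGGCGG, the core of Sp1 sites, was found in 44% against 32.7%, and TATAAA in 8% against 12.4%. AAGATGGC, the core of YY1 sites, was found in 4% against 1.56%. A match is a description of the letters and not a binding site. The 2 promoters below show the ETS word in capitals, in Rps25 and Rps6, the former among the members with the smallest p and the latter the S6 kinase substrate.
Rps25, chr9:44407594-44407713, plus strand: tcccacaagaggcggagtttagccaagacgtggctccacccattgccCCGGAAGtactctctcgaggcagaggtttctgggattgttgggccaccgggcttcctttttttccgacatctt
Rps6, chr4:86857368-86857487, minus strand: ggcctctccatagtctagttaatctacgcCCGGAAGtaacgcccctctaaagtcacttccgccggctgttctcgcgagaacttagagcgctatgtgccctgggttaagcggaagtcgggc

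Before any member was compared, the genotype labels were checked at Igf1. At its 3 probe sets every null array lay below every wild type array, by a mean of 0.46 to 0.99 on the log2 scale (exact permutation p = 0.1 at each, two-sided, the smallest that 3 against 3 arrays can give). The cochlear markers, a list without cartilage or bone genes, were present, with 8 of 10 measured above the median level of all genes. The deposited signals differed in overall height, with array medians of 6.30, 6.30 and 6.09 in wild type pools 1 to 3 and 5.61, 6.36 and 6.20 in null pools 1 to 3, so that null pool 1 lay lowest. Arrays were therefore quantile normalized, which gives every array the same set of values. Values below are log2 signals after that step, differences are null minus wild type, and tests are limma with Benjamini-Hochberg adjustment over all 12393 genes. The signal of a probe set depends on its probes, so brightness does not rank genes by abundance. In whole tissue, fewer cells of a type and less RNA per cell cannot be told apart.

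No ribosomal protein gene passed an adjusted p of 0.05, where 0% of all genes passed. Igf1 did not pass at any of its probe sets either. The smallest adjusted p was 0.934 among the members and 0.221 among all genes (limma). The direction leaned to higher in the null: 34 members had a mean difference above 0, against 51.3% of all genes, and 14 had one below 0, against 48.7%. The median difference of the members was 0.05, a ratio of 1.03, and that of all genes was 0.01. At an unadjusted p below 0.05, 3 members were higher, where 2.57% of all genes were, and 0 were lower, where 2.37% were.

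Another count asks only whether the 3 arrays of one genotype all lie beyond the 3 of the other. By it 9 members were higher in the null, 18.8% of them against 5.62% of all genes, and 2 were lower, 4.17% against 4.98%. The 9 were Rpl27a, Rps25, Rps2, Rps6, Rps10, Rpl10a, Rps4x, Rps14 and Rpl37a, and the 2 were Rpl4 and Rpl7. The counts moved with single arrays. With fewer arrays more genes separate, so each count stands beside its own share of all genes. Without null pool 1 or without null pool 2, 14 members were higher without overlap, where 11.2% and 10.6% of all genes were. Without wild type pool 1 or 2, 4 were lower without overlap, where 10.4% and 9.9% of all genes were. The 3 at an unadjusted p became 0 without null pool 1, where 2.08% of all genes were called higher, and 4 without wild type pool 1, where 3.09% were. They became 1 without wild type pool 2, wild type pool 3, null pool 2 or null pool 3, where 2.57%, 2.07%, 2.43% and 2.51% of all genes were called. In the 4 arrays whose titles carry the number 16, of unstated meaning, 17 were higher and 5 lower without overlap, where 19.4% and 15.9% of all genes were, and the median was 0.06.

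**Figure D1:**
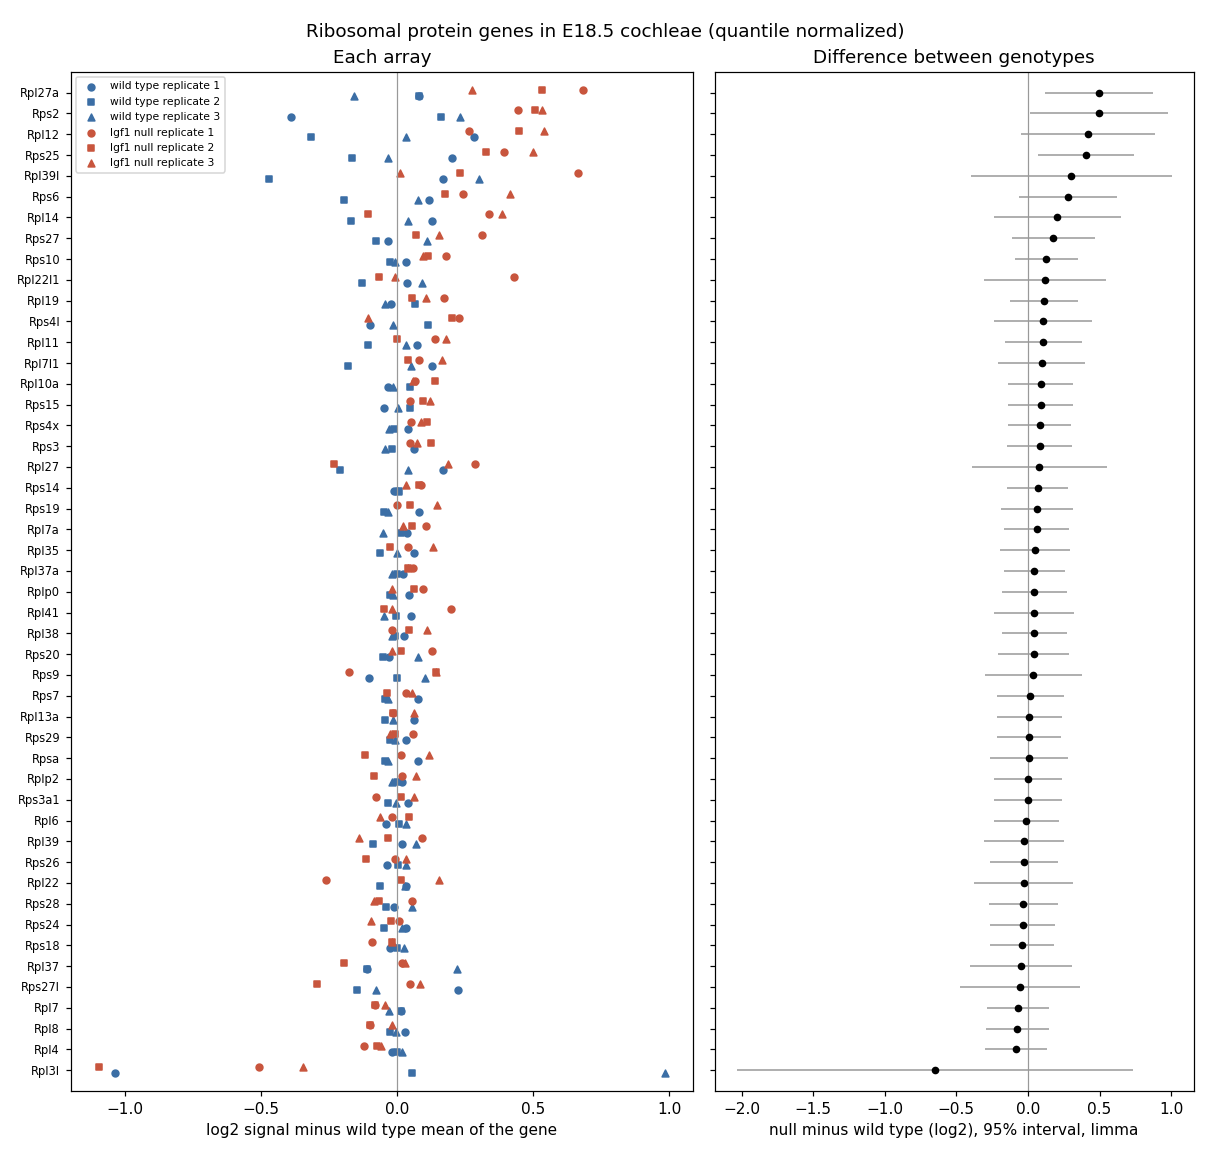
Each of the 48 ribosomal protein genes is a row; the left panel plots the log2 signal of each array minus the wild type mean of that gene (blue wild type, red Igf1 null, symbols by replicate), and the right panel the difference, null minus wild type, with its 95% interval from limma. Only the intervals of Rpl27a, Rps2 and Rps25 lie wholly above 0, and none of the 3 passed adjustment over all genes.

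Most members gave signal near the top of the scale: 36 lay above the 90th percentile of gene levels, a log2 signal of 9.14. Of these bright members 24 lay above 0 and 12 below (median 0.04). Higher and lower without overlap were 5 and 2, where 5.62% and 4.98% of all genes were. Of the 12 others, 10 lay above and 2 below (median 0.24), and 4 and 0 did not overlap, against the same shares. The 1204 other genes above the same percentile had a median of 0.00, with 54 higher and 64 lower without overlap. The precision of the limma intervals differed as well. Because limma draws variances toward a shared value, a bright member's interval can be wider than its own pools imply. Rpl37a had an SD of 0.02 within wild type and 0.01 within null, but a standard error of 0.085. The 95% interval reached 0.21 to 0.47 to each side in the bright members, with a median of 0.23, and 0.28 to 1.39 in the others, with a median of 0.36.

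The small subunit genes, which build the part of the ribosome that reads the message, were 15 higher and 5 lower of 20 (median 0.05). Rps2, which lies near the entry of the message channel, gave 8.35, 8.90 and 8.97 in wild type pools 1 to 3 and 9.18, 9.24 and 9.27 in null pools 1 to 3. The 3 null pools lay close together above all wild type pools, and wild type pool 1 was the low one. The difference was 0.49 with a 95% interval of 0.01 to 0.98 (limma adjusted p = 0.996). Without wild type pool 1 it was 0.30, and it was 0.47 to 0.61 without each of the other arrays.

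Rps25, a small subunit protein needed by some viral internal entry sites, gave 7.62, 7.26 and 7.39 in wild type and 7.82, 7.75 and 7.92 in null pools. The groups were separate, by a smaller step than the range among the wild type pools. The difference was 0.40, with an interval of 0.07 to 0.74 (limma adjusted p = 0.972). Rps6, the S6 kinase substrate, gave 8.58, 8.26 and 8.54 in wild type and 8.70, 8.64 and 8.88 in null pools, again without overlap. Its difference was 0.28 (interval -0.06 to 0.62, limma adjusted p = 0.998).

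Among the bright small subunit genes the steps were small and the arrays close. Rps10, a protein of the small subunit's head, gave 13.03, 12.97 and 12.99 in wild type and 13.18, 13.11 and 13.10 in null pools. Every null pool was above every wild type pool, by a difference of 0.13 (interval -0.09 to 0.35, limma adjusted p = 0.998). Of its 5 other probe sets annotated to it alone, 1 also separated the genotypes, with a difference of 0.12. The 4 others overlapped, with differences of 0.10 and 0.02 at a pair of bright probe sets and 0.55 and 0.52 at a pair of dim ones. Rps4x, the X-linked small subunit protein, gave 13.18, 13.13 and 13.11 against 13.19, 13.25 and 13.23, a difference of 0.08 with wild type pool 1 just below the lowest null pool. Rps14 differed by 0.07, also without overlap. Rps27 gave 8.60, 8.55 and 8.74 in wild type and 8.94, 8.70 and 8.78 in null pools, a difference of 0.18 with overlapping groups.

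Other small subunit genes lay at or around 0. Rps19, the gene most often mutated in Diamond-Blackfan anaemia, differed by 0.06 (interval -0.19 to 0.31). Rpsa, which also serves as the laminin receptor, gave 13.11, 12.99 and 13.01 in wild type and 13.05, 12.92 and 13.16 in null pools, and its mean difference of 0.00 changed sign with single arrays. Rps18, Rps24 and Rps28 differed by -0.04, -0.04 and -0.03, each with groups that overlapped. Rps24 had 6 probe sets of its own, and they did not run one way: 4 differed by 0.03 to 0.18, and the dimmest by -0.89, where the null pools were all lower.

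The large subunit genes, which hold the catalytic centre and the exit tunnel, were 13 higher and 7 lower of 20 (median 0.05). Rpl27a, a large subunit protein, had the smallest p of all members. Its signal was 6.36, 6.36 and 6.12 in wild type and 6.96, 6.81 and 6.55 in null pools. The lowest null pool lay above the highest wild type pool. The difference was 0.50, with an interval of 0.12 to 0.87 (limma adjusted p = 0.934), and it was 0.40 to 0.60 when single arrays were left out. Rpl12, a protein at the base of the stalk, gave 7.40, 6.80 and 7.15 against 7.38, 7.56 and 7.66, a difference of 0.42 (limma adjusted p = 0.998) in which wild type pool 1 overlapped the null range.

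Rpl4, which lines the exit tunnel, ran the other way among bright genes. It gave 13.01, 13.02 and 13.04 in wild type and 12.90, 12.95 and 12.96 in null pools, lower in every null pool by a difference of -0.08 (interval -0.30 to 0.13). Rpl7 gave 12.66, 12.66 and 12.62 against 12.57, 12.57 and 12.60, a difference of -0.07, and its other probe sets differed by -0.10 and -0.10. Rpl8 also differed by -0.07, with null pool 3 inside the wild type range, and Rpl37 by -0.05. Rpl19, often used as a reference gene, differed by 0.11. Rpl11, which with 5S RNA can hold back Mdm2, gave 11.79, 11.61 and 11.75 in wild type and 11.86, 11.72 and 11.90 in null pools, a difference of 0.11 (interval -0.16 to 0.38) with overlap.

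The P stalk, which recruits the elongation factors, gave values near 0. Rplp0, its anchor, gave 13.08, 13.01 and 13.03 in wild type and 13.14, 13.10 and 13.02 in null pools, a difference of 0.05. Rplp2 gave 12.91, 12.89 and 12.87 against 12.91, 12.80 and 12.96, a difference of 0.00 with an interval of -0.23 to 0.24. Rplp1 was measured only at a probe set that also lists the predicted gene Gm13777, where the difference was 0.02.

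The 6 paralogs were 4 higher and 2 lower, and in none of them were the groups separate. Rpl22l1, the paralog of Rpl22, gave 11.12, 10.95 and 11.17 in wild type and 11.51, 11.01 and 11.07 in null pools; its difference of 0.12 was -0.03 without null pool 1. Rpl39l, known from testis, differed by 0.30 with overlap, Rps4l by 0.11 and Rpl7l1 by 0.10. Rps27l, a p53 target, differed by -0.05. Rpl3l, the form of skeletal and heart muscle, gave -0.41, 0.68 and 1.61 in wild type and 0.11, -0.47 and 0.28 in null pools, a signal near the bottom of the scale with the widest spread of any member (SD 1.01 within wild type, n = 3); its difference of -0.65 had an interval of -2.04 to 0.74.

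The larger steps were smaller at brighter probe sets of the same genes. Rpl27a, Rps25, Rps2, Rpl12, Rps6 and Rps27 were among those named for a small p, which favours a smaller difference at any other probe set. For Rps25, a brighter probe set, annotated to Rps25 and the predicted genes Gm6988 and Gm4963, gave 11.98, 11.88 and 11.95 in wild type and 12.06, 11.98 and 12.08 in null pools. There the difference was 0.10, against 0.40 at the probe set of Rps25 alone. For Rps2, 2 brighter shared probe sets differed by 0.01 and -0.01, against 0.49. For Rpl27a the brighter shared probe set differed by 0.11, against 0.50, and for Rpl12 the shared ones differed by 0.14 and 0.13, against 0.42. For Rps6, 9 probe sets shared with a pseudogene existed, and the brightest differed by 0.03, against 0.28, while a dim one differed by 0.29. Rps9 and Rps20, represented by a bright probe set, were named after their values were seen. Rps9 differed by 0.04 there and by 0.67 at a dim probe set. Rps20 differed by 0.04 there, by 0.47 at a dim probe set and by -0.02 at another dim one. Rps27 was closest, with 0.15 at its shared probe set against 0.18. Rpl14 differed by 0.21, and its 5 brighter shared probe sets by -0.07 to 0.11. Rpl39 went the other way, with 0.10 at its brighter shared probe set against -0.03. Which of these probe sets follows the functional message, and the part of pseudogene transcripts, was not tested.

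Over all probe sets that name a ribosomal protein gene, brightness separated the sizes in the same way. Of 146 at or above the level of 9.14, 106 lay above 0 and 40 below (median 0.04), and 15 and 3 did not overlap, where 5.61% and 4.79% of all probe sets of that level did. Of the 56 below it, 44 lay above 0 and 12 below (median 0.20), and 10 and 1 did not overlap, where 5.53% and 5.35% did. The 102 probe sets listing several genes, which no member's value used, lay 78 above 0 and 24 below (median 0.04), and 10 and 0 did not overlap, where 5.53% and 5.3% of all probe sets did. These 10 included Rpl15, Rpl29, Rpl34, Rpl10, Rps16 and Rps15a, chosen for naming after their values were seen. The 52 single-gene probe sets that did not represent a gene lay 38 above 0 and 14 below (median 0.09), and 43 had the sign of the member's own difference. Probe sets of 1 gene share its messages and are not independent of each other.

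**Figure D2:**
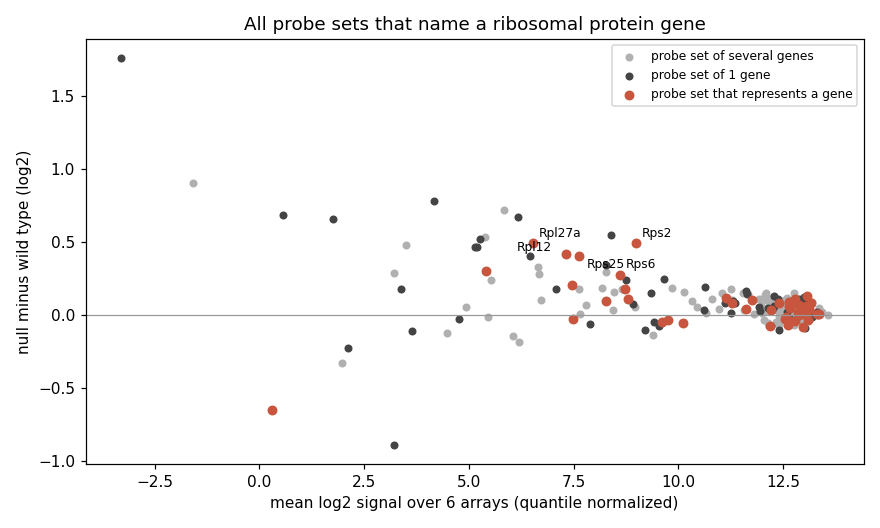
Each point is 1 of the 202 probe sets that name a ribosomal protein gene, by mean log2 signal over the 6 arrays (horizontal) and difference, null minus wild type (vertical); red points represent the 48 genes, dark points are other single-gene probe sets and grey points list several genes. Bright probe sets crowd near 0 with a median of 0.04, and differences widen toward dim signal.

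The direction of the members depended on how the arrays were brought to a common scale. On the deposited values the medians of the members were 12.56, 12.51 and 12.57 in wild type and 12.37, 12.74 and 12.73 in null pools, so null pools 2 and 3 lay above the wild type pools and null pool 1 below. There 37 members were higher, where 24.2% of all genes were, and none was separate in either direction, where 0.888% were higher and 4.62% lower. The median of the members was 0.05 and that of all genes -0.14. Without null pool 1, an alternative chosen after the data were seen, 45 members were higher, where 64.3% of all genes were, and 36 were higher without overlap, where 15.2% of all genes were. The median of the members was then 0.16 and that of all genes 0.09.

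Null pool 1 stood apart in its shape as well as its height. On the deposited values its median over all genes was 6.13, against 6.59 to 6.88 in the other arrays. The median of its 36 bright members was 12.58, against 12.67 to 12.96 in the others, so it fell behind less at the ribosomal protein genes. Centring each array on its median raised these genes most in that array. With median centring 47 members lay above 0 and 1 below, where 55.4% of all genes lay above, the median was 0.22, and 9 and 0 did not overlap, where 7.16% and 4.28% did. Without null pool 1 that median was 0.11. Centring on the 75th percentile gave 43 higher, where 47.3% were, and a median of 0.18, with 8 and 0 without overlap, where 4.95% and 6.03% were. Without null pool 1 that median was 0.06.

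**Figure D3:**
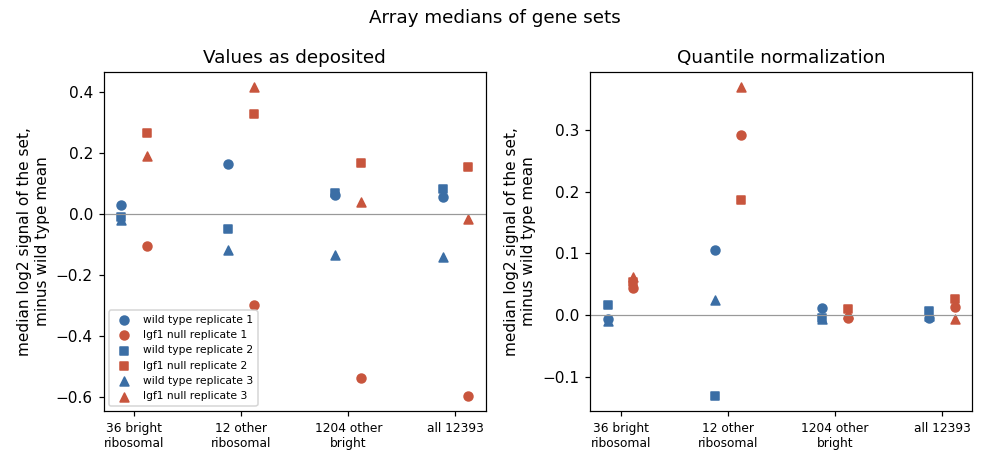
The median log2 signal of 4 gene sets in each array, minus the mean of the 3 wild type medians, on the deposited values (left) and after quantile normalization (right); blue is wild type, red is Igf1 null, symbols mark replicates, and the vertical scales differ. On the left null pool 1 is lowest in each set, by least at the 36 bright ribosomal protein genes; on the right the null pools lie above the wild type pools at both ribosomal sets.

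Methods that let the shift depend on signal gave smaller steps. Cyclic loess gave 42 higher, where 50.3% of all genes were, a median of 0.09, and 12 and 0 without overlap, where 5.47% and 5.28% were. Without null pool 1 that median was 0.05. Quantile normalization leaves little room at the top of the scale, because each array receives the same highest values: 62 of the 100 brightest probe sets, and 130 of the brightest 500, named a ribosomal protein gene. When the quantile step was learned on the other genes and then applied to the members, 41 were higher, where 51.4% of all genes were, with a median of 0.11 against 0.05 when they took part. Then 12 and 0 did not overlap, where 5.66% and 4.9% did. When the quantile values were centred on the bright genes that are not members, 33 were higher, where 50.8% were, the median was 0.04, and 10 and 2 did not overlap, where 5.48% and 5.12% did.

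The bacterial hybridisation controls, RNAs added in fixed amount before hybridisation, gave the opposite sign. Their mean signal was 9.44, 9.34 and 9.54 in wild type and 9.96, 9.53 and 9.53 in null pools, highest in the array whose gene signals were lowest. Scaled to them, 4 members were higher and 44 lower, where 9.49% and 90.5% of all genes were, with a median of -0.18 for the members and -0.38 for all genes. No member was separate in either direction, where 0.412% and 6.7% of all genes were. Without null pool 1 the members' median was 0.07 and that of all genes -0.01, with 38 members higher, where 49% of all genes were. In each of the 8 scalings the median of the members lay above that of all genes, but the scalings do not test this order separately. Deposited values, centring on the median or a higher percentile, and scaling to the controls differ only by a constant per array. The gap between the medians is therefore the same in all of them. Quantile normalization with and without centring on bright other genes likewise shares a gap. In none of the 8 did a member pass an adjusted p of 0.05, nor did any gene.

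**Figure D4:**
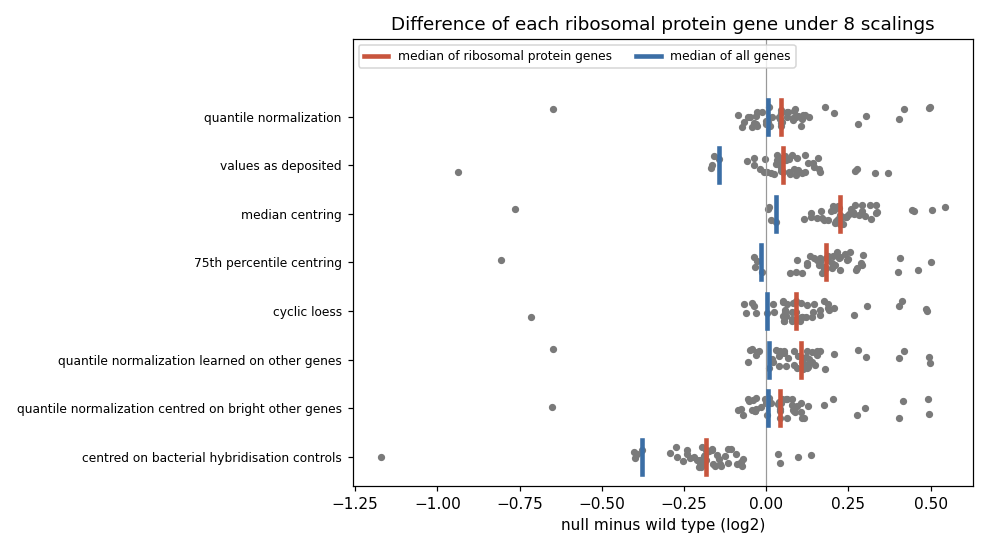
Each grey point is 1 of the 48 ribosomal protein genes, at its difference null minus wild type on the log2 scale (horizontal), in 8 rows for the 8 scalings; red bars mark the median of the members and blue bars the median of all 12393 genes, and vertical jitter carries no value. The red bar lies to the right of the blue bar in every row, between -0.18 and 0.22. Rows that differ only by a constant per array have the same gap between the bars and do not test their order separately. These are deposited values, centring on the median or a higher percentile, and hybridisation controls. Quantile normalization with and without centring on bright other genes likewise shares a gap.

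Single genes kept or lost their sign with the scaling. Rpl27a differed by 0.33 on deposited values, 0.46 to 0.50 under the 6 scalings by gene signal and 0.10 against the hybridisation controls. Rps25 differed by 0.27, 0.40 to 0.44 and 0.04 in the same order. Rps2 differed by 0.37, 0.49 to 0.54 and 0.14. Rps10 differed by 0.15, 0.13 to 0.32 and -0.09. Rpl4 differed by -0.08 after quantile normalization, 0.12 with median centring and 0.07 with 75th percentile centring, so its lower signal in the null held under some scalings only. Rpl7 likewise turned to 0.17 with median centring, 0.12 with 75th percentile centring and 0.02 with cyclic loess.

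The promoter features were set beside the members' differences. Members with at least 8 C or T in a row, counted in the same way, were 11 higher and 3 lower of 14 (median 0.06), and those with a shorter run 19 higher and 9 lower of 28 (median 0.05). Members with CCGGAAG before the start were 13 higher and 4 lower of 17 (median 0.04), and those without it 17 higher and 8 lower of 25 (median 0.06). The differences between these classes were not tested.

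Other genes of the pathway were read from lists, none of whose genes passed the adjusted threshold. Initiation factors, which load the message onto the small subunit, were 22 higher and 6 lower of 28 (median 0.07), where 51.3% and 48.7% of all genes were, and 3 and 0 did not overlap, where 5.62% and 4.98% of all genes did. Eif3k, a subunit of the eIF3 scaffold, differed by 0.27, without overlap. Elongation factors and other known TOP messages were 6 higher and 6 lower of 12 (median 0.00); Eef1a1 differed by 0.02 and Eef2 by -0.04. Ribosome biogenesis genes were 30 higher and 13 lower of 43 (median 0.04), and Polr1e, a subunit of RNA polymerase I, differed by 0.40. Mitochondrial ribosomal protein genes, which build a separate ribosome, were 58 higher and 16 lower of 74 (median 0.10), and 6 and 1 did not overlap, against the same shares of all genes. Mrps18b differed by 0.45.

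Upstream of the ribosome, mTOR and S6 kinase pathway genes were 9 higher and 8 lower of 17 (median 0.03). Ddit4, an inhibitor of mTOR complex 1, gave 9.32, 9.31 and 9.19 in wild type and 8.78, 8.62 and 8.29 in null pools, lower in every null pool by -0.71 (not past adjustment). Rps6kb2, which encodes an S6 kinase, gave 6.34, 6.43 and 6.26 against 6.61, 6.90 and 6.94, a difference of 0.47. Of 7 Myc factors, which regulate ribosome genes, 5 lay above 0 and 2 below (median 0.07). Fau, whose product carries a small subunit protein fused to a ubiquitin-like part, gave 12.44, 12.44 and 12.39 in wild type and 12.53, 12.54 and 12.56 in null pools, a difference of 0.12.

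Markers of cell types were read in the same arrays, and none of their genes passed the adjusted threshold. Cartilage markers were lower in the null in 12 of 12 genes, where 48.7% of all genes were, and their summed log2 levels overlapped, at 15.09 to 15.41 in wild type and 14.72 to 15.23 in null pools. Bone markers were lower in 7 of 7, with sums of 14.62 to 14.86 against 14.46 to 14.63, which overlapped by 1 null pool. Hair cell markers were higher in 9 of 10, where 51.3% of all genes were, with overlapping sums of 8.56 to 8.80 against 8.74 to 9.21. Vestibular markers were higher in 3 of 3, with sums of 9.99 to 10.48 against 10.75 to 11.69 that did not overlap; 1 of the 10 and 1 of the 3 lay above the median level of all genes. Erythroid markers were 4 higher and 3 lower of 7, and their sums of 7.96 to 8.46 against 7.14 to 7.74 did not overlap. Neuron, skeletal muscle and macrophage markers, 3 of 8, 8 of 10 and 7 of 10 higher, had sums that overlapped between genotypes. The cochlear markers, a list without cartilage or bone genes, were higher in 9 of 10 (median 0.25). Their sums overlapped, at 12.39 to 12.84 in wild type and 12.56 to 12.99 in null pools. Higher without overlap were 4 hair cell, 2 vestibular and 1 cochlear marker, where 5.62% of all genes were. Lower without overlap were 2 cartilage, 4 bone and 3 erythroid markers, where 4.98% of all genes were. Of the controls of RNA quality, 1 separated the genotypes. The log2 signal of Actb at its 3 prime end minus that at its 5 prime end was 0.76, 0.71 and 0.80 in wild type and 0.89, 0.86 and 1.08 in null pools (exact permutation p = 0.1), and for Gapdh the same test gave p = 0.5. The 18S ribosomal RNA control probe sets, on the deposited scale, were higher in the null by 0.26, 0.94 and 1.28 with overlapping arrays (exact permutation p = 0.3 each). The part of tissue composition and of RNA quality in the ribosomal protein differences was not tested.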

How the data were processed

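RNA from 6 pools of cochleae was measured on Affymetrix arrays. The authors deposited log2 signals of 22690 probe sets. Base 2 was read from their range, and how they were summarised and background corrected is not stated in what was used here. Groups came from the sample titles; another field marks the null samples as wild type, against title and description, and gives day 18.6 for wild type pool 2. The 64 control probe sets were left out. Platform annotation gave 1 gene to 20380 probe sets, several to 691 and none to 1555. Arrays were quantile normalized and fitted by genotype in limma 3.58.1 (R 4.3.3, eBayes, two-sided) over 12393 genes, with a threshold of 0.05 on Benjamini-Hochberg adjusted p. Differences are log2 null minus wild type.

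Alternatives were 7 other scalings, a replicate or title number block, trended and robust variance, array weights (statmod 1.5.0), averaging a gene's probe sets, leaving out probe sets with the suffix x_at or s_at (probes that may match other genes), a filter at the 40th percentile, a pseudocount of 32, and each array left out. The members and lists were chosen with earlier results of these data known. Genes named were the 8 per direction with the smallest p, the P stalk, Rpsa, Rps6, Rpl5, Rpl11, Rps19, the paralogs, and up to 4 genes per list; others named (Rps4x, Rps14, Rpl10a, Rpl37a, Eef1a1, Eef2 and Fau among them) were chosen after their values were seen. On simulated data of 12393 genes, the test called 5.42% of 1.5-fold and 54.4% of 2-fold changes above the median level, and 1.48% and 9.14% below it. The simulation changed a small share of the genes, drew independent noise and included no normalization step. It held no change as small as the differences of the bright members. Precision is limited by having 3 arrays a group.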

Additional observations from a re-analysis of the deposited data

How the results depend on the processing

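No member passed the adjusted threshold under any alternative run, and the median difference stayed above 0 under all but the scaling to hybridisation controls with all 6 arrays. Changes near 0.05 on the log2 scale are within the intervals of every bright member, so neither direction nor absence of change is settled by 3 arrays a group. Deviations of same-numbered arrays correlated at 0.02, 0.09 and 0.01, and those of differently numbered arrays at -0.06 to 0.04. Whether the replicate numbers pair the arrays cannot be told from so few values. With the replicate block 2 members were higher at an unadjusted p below 0.05, where 2.75% of all genes were. Without it 3 were, where 2.57% of all genes were. With the title number as a block 3 were, where 2.85% of all genes were. The share of members higher ran from 8.33% with hybridisation controls to 97.9% with median centring, against 70.8% after quantile normalization. The cause of each change below was not tested, unless it follows from fewer arrays or probe sets.

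Unadjusted calls higher in the null were 0 on deposited values and with hybridisation controls, where 0.896% and 0.605% of all genes were called. They were 5 with trended and robust variance and 5 with the pseudocount of 32, where 2.28% and 3.19% of all genes were. Leaving out single arrays gave 0 to 4 higher and 0 to 1 lower, 11 to 14 higher and 2 to 4 lower without overlap, medians of 0.033 to 0.061, and 0 to 1 of all genes at the adjusted threshold, the 1 without null replicate 3. In those runs 2.07% to 3.09% of all genes were called higher, and the share called lower was not counted. Without overlap, 8.91% to 12.1% of all genes were higher and 8.04% to 11.2% lower. Members higher without overlap were 0 on deposited values and with hybridisation controls, where 0.888% and 0.412% of all genes were. They were 17 without both arrays of title number 14, where 19.4% of all genes were. Members lower without overlap were 5 without those arrays and 1 without x_at and s_at probe sets, where 15.9% and 5.08% of all genes were. They were 0 on deposited values, with median centring and with 75th percentile centring, where 4.62%, 4.28% and 6.03% of all genes were. They were also 0 with cyclic loess, the quantile step learned on other genes, and hybridisation controls, where 5.28%, 4.9% and 6.7% were. The median difference was 0.22 with median centring, 0.18 with the 75th percentile, 0.091 with cyclic loess, 0.11 with the quantile step learned on other genes, -0.18 with hybridisation controls, 0.084 when a gene's probe sets were averaged, and 0.083 without x_at and s_at probe sets, which left 43 members. With null replicate 1 left out, unadjusted calls higher were 1 on deposited values and 1 with median centring, where 2.03% and 2.07% of all genes were called. They were 0 with the 75th percentile, cyclic loess and hybridisation controls, where 1.55%, 2.02% and 1.19% were. Then members higher without overlap were 36 on deposited values and 14 with cyclic loess, where 15.2% and 10.8% of all genes were. Members lower without overlap were then 0 on deposited values and with median centring, where 5.41% and 8.21% of all genes were. They were 0 with the 75th percentile and hybridisation controls, where 10.9% and 7.21% were. The medians were then 0.16, 0.11 and 0.067 on deposited values, with median centring and with hybridisation controls.

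Single genes changed sign as follows. With hybridisation controls, Rps6 was -0.093, Rps27 -0.18, Rps10 -0.088, Rpl19 -0.070, Rplp0 -0.16, Rplp2 -0.20, Rpsa -0.20, Rpl11 -0.16, Rps19 -0.12, Rpl22l1 -0.18, Rpl39l -0.14, Rpl7l1 -0.27 and Rps4l -0.25. With median centring, Rpl4 was 0.12, Rpl8 0.13, Rpl7 0.17, Rps18 0.20, Rps24 0.21, Rpl37 0.0085, Rps28 0.18 and Rps27l 0.015. With the 75th percentile, Rpl4 was 0.073, Rpl8 0.092, Rpl7 0.12, Rps18 0.16, Rps24 0.16 and Rps28 0.13. With cyclic loess, Rpl8 was 0.0025, Rpl7 0.023, Rps18 0.054, Rps24 0.060 and Rps28 0.020. With the quantile step learned on other genes, Rpl7 was 0.017, Rps18 0.039, Rps24 0.0077 and Rps28 0.053. On deposited values, Rps18 was 0.025, Rps24 0.034, Rps28 0.0028, Rpl7l1 -0.037 and Rps4l -0.020. Rps18 was 0.0059 when its probe sets were averaged, Rps24 was 0.18 without x_at and s_at probe sets, and Rplp2 was -0.0019 centred on bright other genes. With array weights Rplp2 was -0.022 and Rpsa -0.025. Without both arrays of title number 14, Rplp2 was -0.0059, Rpl22l1 -0.014, Rps27l 0.0024 and Rps4l -0.0013. Leaving out single arrays gave Rpl37 -0.10 to 0.061, Rplp2 -0.035 to 0.046, Rpsa -0.055 to 0.063, Rpl22l1 -0.034 to 0.21 and Rps27l -0.13 to 0.068.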
